A study of Mus musculus with 21 samples.

Results

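The transforming growth factor beta (TGF-beta) genes described here are the ligands Tgfb1, Tgfb2 and Tgfb3, the receptors Tgfbr1, Tgfbr2 and Tgfbr3, the latent binding proteins Ltbp1 and Ltbp2, the inhibitor Smad7 and the induced matrix protein Tgfbi. They were chosen by name, and each symbol was matched to 1 Ensembl identifier through the GRCm38 annotation, which gave 10 genes of the 55487 identifiers counted. Messenger RNA had been sequenced from 21 tumours grown in C57BL/6 mice from Hepa1-6, a mouse hepatoma line. The mice were B-cell-depleted or WT, and were given either anti-PD1 together with anti-CTLA4, called the combination here, or an isotype control. The 4 arms were B-depleted combination (5 libraries), B-depleted isotype (6), WT combination (5) and WT isotype (5). Every tumour came from the same implanted line, which is a limit of the model. The labels do not say how B cells were removed, the age or sex of the mice, or whether each library is a separate animal, so the tests measure the spread between these libraries.

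TGF-beta ligands are secreted in a latent complex, which latent TGF-beta binding proteins anchor to the matrix and which integrins and other factors open. The active ligand binds TGFBR2, which phosphorylates TGFBR1, and SMAD2 and SMAD3 then enter the nucleus with SMAD4. SMAD7 is itself a target of the pathway and shuts the receptors off, while collagens and TGFBI are among the matrix products that the pathway raises in fibroblasts. In liver tumours the pathway is known for its part in fibrosis and in restraining T cells.

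Of the 10 genes, 7 had a promoter in the RefSeq table for GRCm38.p6. The 250 bases before the start site in that table are shown for Tgfbi, the gene with the largest fold change under the combination in WT tumours, and for 2 ligands that behaved differently from each other across libraries, Tgfb2 and Tgfb1. Capitals mark the SMAD core AGAC, or GTCT on the other strand, and the box TATAAA. The AP-1 site TGACTCA, searched as TGAGTCA on the other strand, was in none of these 3. The Tgfbi window is chr13:56609336-56609585 on the plus strand, the Tgfb2 window chr1:186705990-186706239 on the minus strand, and the Tgfb1 window chr7:25686752-25687001 on the plus strand, each written 5′ to 3′ along its gene.
Tgfbi promoter: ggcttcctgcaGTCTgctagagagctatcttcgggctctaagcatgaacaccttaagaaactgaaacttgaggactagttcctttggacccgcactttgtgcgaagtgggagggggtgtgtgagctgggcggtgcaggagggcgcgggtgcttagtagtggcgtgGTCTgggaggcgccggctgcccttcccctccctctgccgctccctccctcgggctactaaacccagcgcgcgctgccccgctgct
Tgfb2 promoter: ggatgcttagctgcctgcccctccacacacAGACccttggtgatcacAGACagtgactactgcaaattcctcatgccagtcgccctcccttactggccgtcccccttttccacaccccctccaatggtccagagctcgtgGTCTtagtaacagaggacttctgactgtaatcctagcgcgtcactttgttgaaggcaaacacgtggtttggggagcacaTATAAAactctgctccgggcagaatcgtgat
Tgfb1 promoter: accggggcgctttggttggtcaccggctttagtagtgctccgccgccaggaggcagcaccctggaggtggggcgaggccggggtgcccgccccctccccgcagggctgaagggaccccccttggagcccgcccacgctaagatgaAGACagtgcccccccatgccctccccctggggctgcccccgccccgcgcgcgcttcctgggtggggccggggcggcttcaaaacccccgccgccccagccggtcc
The Tgfb2 window held 3 SMAD cores, 220, 203 and 110 bases before the start, and a TATA box. The Tgfbi window held 2, at 239 and 85 bases, and the Tgfb1 window 1, at 105 bases. The Tgfbi window runs past the gene start used for positions below, 56609523, so its distances count from the RefSeq start only. A SMAD core is 4 letters long and was in 82.9% of the 32851 promoters of this length in the table, with a median of 2.0 per promoter, so its presence sets none of these genes apart. TATAAA was in 12.4% of them and the AP-1 site in 4.46%. GC content was 62.4% for Tgfbi, 53.6% for Tgfb2 and 75.2% for Tgfb1.

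Total counts ran from 9.52 to 19.17 M reads per library, with a median of 15.9 M, and 19061 genes entered the tests. The 3 B-cell markers Ms4a1, Cd79a and Cd79b summed to 0.670 to 3.43 CPM (counts per 1 M counts of the library) in B-depleted combination, 0.188 to 2.29 in B-depleted isotype, 3.33 to 14.2 in WT combination and 1.40 to 3.04 in WT isotype. B-depleted combination libraries 4 (1.46 CPM) and 5 (3.43 CPM) and B-depleted isotype library 3 (2.29 CPM) lay within or above the WT isotype range, so the depletion label cannot be read from these transcripts in those 3 libraries. WT isotype libraries 1 and 2 had lower hepatocyte and hepatoma markers, 1156 and 1260 CPM summed over 6 genes, than the other 3 libraries of that arm, 2778 to 4323 CPM. Summed Y-linked transcripts were 85.9 to 169 CPM in B-depleted combination, 46.3 to 119 in B-depleted isotype, 135 to 250.5 in WT combination and 47.6 to 79.2 in WT isotype. The last 2 of these ranges do not overlap, while the 2 combination arms overlap only through B-depleted combination library 5, at 169 CPM. The next highest library of its arm, library 2, had 108.8 CPM, below the WT combination range. Values with the summed Y-linked level as a covariate are given beside the counts for the combination in WT tumours and for depletion under the combination.

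Per kilobase of exon, the 10 genes differed widely in level, with Ltbp1 and Tgfb2 the lowest in every arm. In WT isotype tumours the order by mean CPM per kilobase (± SD, n = 5) was Smad7 at 44.0 ± 10.99, Tgfbi at 38.9 ± 4.23, Tgfb1 at 26.9 ± 2.44, Tgfbr1 at 26.6 ± 1.42, Tgfbr2 at 22.3 ± 3.57, Tgfbr3 at 9.18 ± 6.20, Ltbp2 at 8.90 ± 1.82, Tgfb3 at 5.22 ± 0.739, Tgfb2 at 0.850 ± 0.177 and Ltbp1 at 0.385 ± 0.284. Among neighbours in that order, the library ranges were apart between Tgfbi and Tgfb1, between Ltbp2 and Tgfb3 and between Tgfb3 and Tgfb2, and overlapped for the other pairs. In WT combination tumours Tgfbi stood first at 91.3 ± 31.2 CPM per kilobase, clear of Smad7 at 34.3 ± 10.8. Tgfbi also had the highest mean in B-depleted combination, 56.1 ± 31.9 against 40.1 ± 5.66 for Smad7 (n = 5), but there the ranges overlapped. In B-depleted isotype Smad7 had the highest mean, 47.2 ± 5.80 against 36.6 ± 10.8 for Tgfbi (n = 6), again with overlapping ranges.

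**Figure D1:**
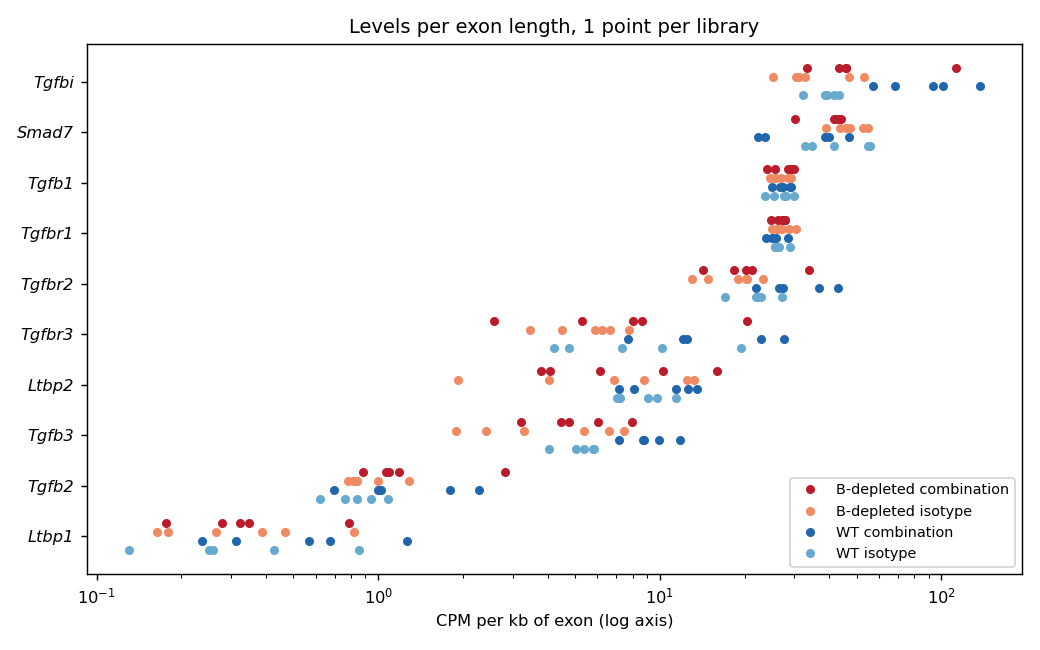
Level of each TGF-beta gene in CPM per kilobase of exon (log axis), 1 point per library, coloured by arm. Tgfbi, Smad7, Tgfb1, Tgfbr1 and Tgfbr2 lie to the right, and Tgfb2 and Ltbp1 at the low end.

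Tgfb1 was the predominant ligand transcript. Of the 3 ligands per length, it made up 80.8% ± 5.09 in B-depleted combination (SD, n = 5), 83.4% ± 5.72 in B-depleted isotype (n = 6), 72.2% ± 3.67 in WT combination (n = 5) and 81.6% ± 1.82 in WT isotype (n = 5). The share of Tgfb3 was 15.2% ± 3.61 in B-depleted combination, 13.7% ± 6.13 in B-depleted isotype, 24.2% ± 3.16 in WT combination and 15.8% ± 1.85 in WT isotype. The Tgfb3 share ran from 20.8 to 28.7% in WT combination and from 13.4 to 18.1% in WT isotype, so these 2 arms did not overlap in that share. The Tgfb2 share overlapped, at 2.02 to 5.69% in WT combination and 2.09 to 3.15% in WT isotype. Of all genes tested, 29.3% had CPM ranges that did not overlap between these 2 arms. Tgfb2 stayed a minor part, with a mean of 3.99% in B-depleted combination, 2.90% in B-depleted isotype, 3.51% in WT combination and 2.56% in WT isotype.

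Tgfb1, the ligand most associated with immune cells and fibrosis, lies at chr7:25687002-25705077 on the plus strand and hardly varied. It had 150.5, 143, 129.6, 121 and 147 CPM in B-depleted combination libraries 1 to 5, and a lowest, median and highest of 124, 132 and 147 CPM in the 6 B-depleted isotype libraries. It had 126, 146, 134, 138 and 147 CPM in WT combination and 142, 151, 119, 128 and 139 CPM in WT isotype. All 4 arms overlapped. The log2 fold change of the combination over isotype was 0.058 ± 0.072 in B-depleted tumours (SE, 95% interval -0.093 to 0.21) and 0.049 ± 0.075 in WT tumours (-0.11 to 0.21). Neither passed (edgeR quasi-likelihood test, Benjamini-Hochberg adjusted p = 0.738 and 0.606), and both intervals leave room for a rise of no more than about 0.21 log2 units. In these bulk samples, fewer cells of a type and less RNA per cell cannot be told apart.

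Tgfb2, the ligand that depends most on the coreceptor TGFBR3 for binding, lies at chr1:186622792-186705989 on the minus strand. It had 6.30, 6.86, 5.14, 6.17 and 16.3 CPM in B-depleted combination and 4.51, 4.83 and 7.46 CPM as the lowest, median and highest of B-depleted isotype. It had 5.90, 5.77, 4.03, 10.4 and 13.2 CPM in WT combination and 5.47, 4.86, 3.59, 4.41 and 6.29 CPM in WT isotype. Its upper values were in B-depleted combination library 5 and in WT combination libraries 4 and 5, and the arms overlapped. The combination gave a log2 fold change of 0.64 ± 0.31 in B-depleted tumours (adjusted p = 0.354 by the same edgeR test) and 0.70 ± 0.32 in WT tumours (adjusted p = 0.0782). The WT value passed when B-depleted combination library 5 was left out (adjusted p = 0.0272) or WT combination library 3 (0.0305), and was 0.44 without WT combination library 5 (adjusted p = 0.276).

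Tgfb3, a ligand prominent in mesenchymal cells, lies at chr12:86056745-86079041 on the minus strand and was the only ligand called in the main edgeR tests. It had 15.1, 20.4, 10.9, 16.1 and 26.99 CPM in B-depleted combination and 6.39, 14.7 and 25.3 CPM as the lowest, median and highest of B-depleted isotype. It had 29.6, 33.6, 24.3, 39.7 and 29.4 CPM in WT combination and 17.1, 19.6, 18.2, 13.6 and 19.8 CPM in WT isotype. All 5 WT combination libraries exceeded all 5 WT isotype libraries, whereas the B-depleted arms overlapped widely. Tgfb3 rose in WT tumours by 0.85 ± 0.30 on the log2 scale (95% interval 0.21 to 1.48, 1.80-fold, edgeR adjusted p = 0.0267). In B-depleted tumours the log2 fold change was 0.26 ± 0.29 (-0.35 to 0.88, adjusted p = 0.703). The difference between those 2 responses was -0.58 ± 0.42 (adjusted p = 0.380), so a response limited to WT tumours was not shown. The WT call was lost without WT combination library 2 (adjusted p = 0.0512) or 4 (0.0670) and without WT isotype library 4 (0.0691). It was also lost in edgeR fits with no filter (adjusted p = 0.0780) and with the number in the description code as a block (0.0818). The same held without WT isotype libraries 1 and 2 (0.0644) and with the Y-linked covariate (0.608). The WT value of Tgfb2, 0.70 ± 0.32, was close to that of Tgfb3, and the 2 ligands were not tested against each other. Tgfb3 overlaps Ttll5 on the other strand, which shares none of its exon bases. Also on the other strand, Gm48008 and Gm37804 share 257 and 163 of its exon bases. They held 14 and 7 counts in all, against 6636 for Tgfb3.

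**Figure D2:**
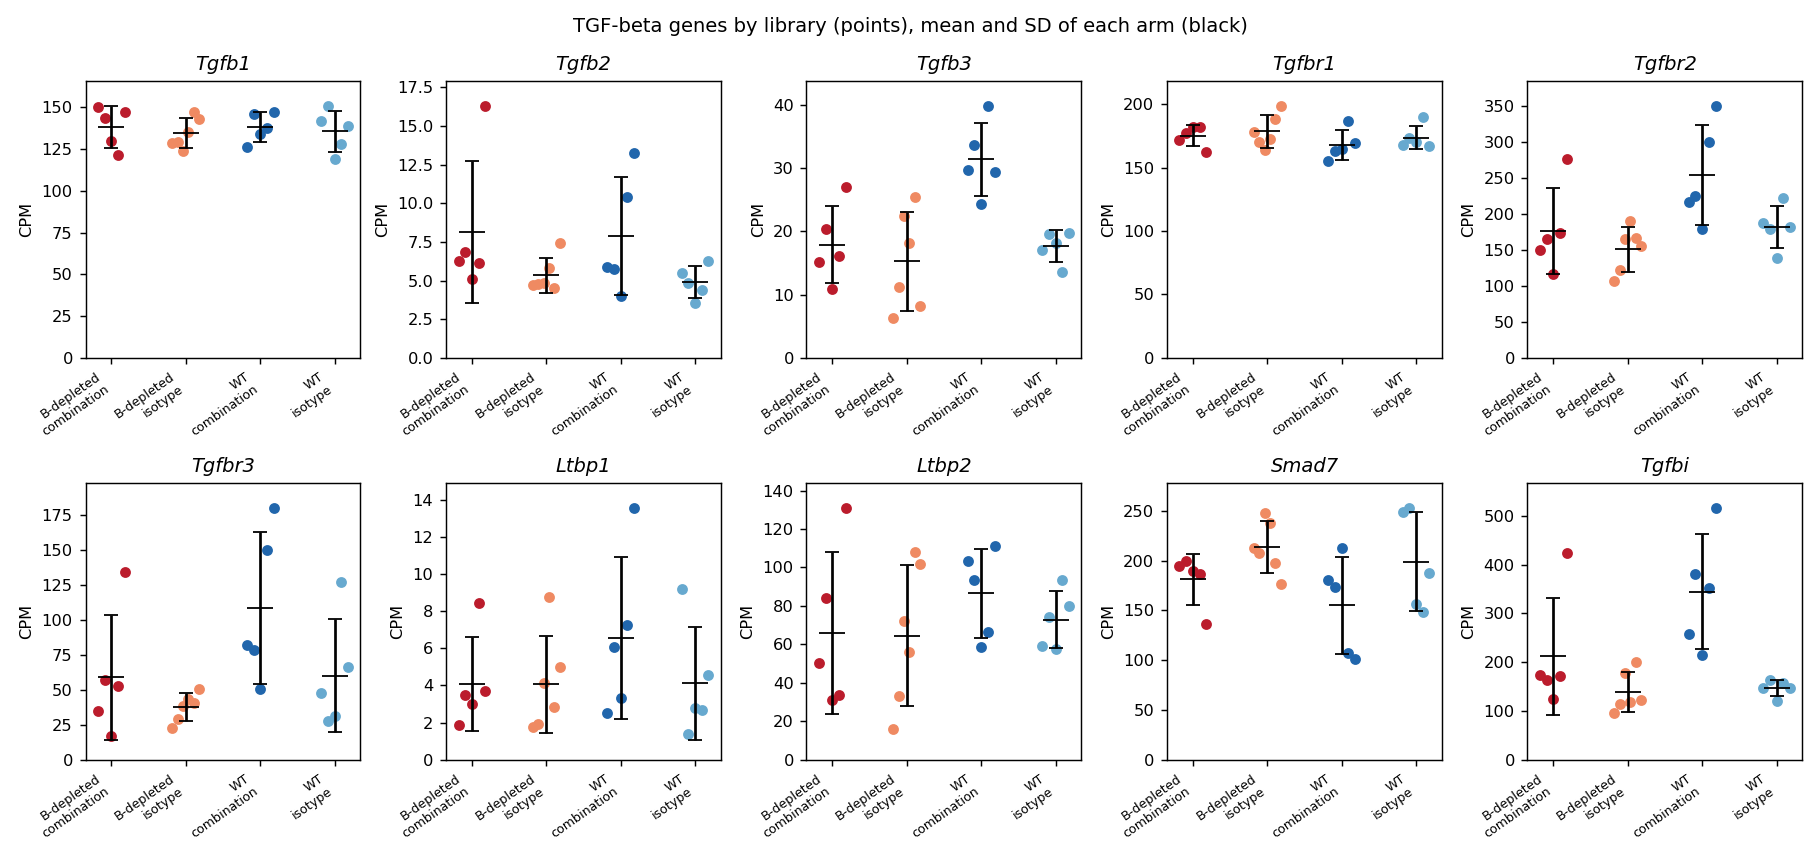
CPM of each TGF-beta gene in every library, with the mean and SD of each arm in black and the arms in the order B-depleted combination, B-depleted isotype, WT combination and WT isotype. Tgfb3 and Tgfbi in WT combination lie above WT isotype with no overlap, and 1 B-depleted combination library stands high for Tgfb2, Tgfbr3 and Tgfbi.

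Tgfbr1, the kinase that phosphorylates SMAD2 and SMAD3, lies at chr4:47353222-47414931 on the plus strand and was as steady as Tgfb1. It had 171, 177, 182, 182 and 162 CPM in B-depleted combination and 164, 175 and 198 CPM as the lowest, median and highest of B-depleted isotype. It had 155, 163, 164, 186 and 169 CPM in WT combination and 167, 173, 170.0, 189 and 167 CPM in WT isotype. No arm stood apart. The log2 fold change of the combination was -0.012 ± 0.063 in B-depleted tumours (95% interval -0.14 to 0.12, edgeR adjusted p = 0.946) and -0.029 ± 0.066 in WT tumours (-0.17 to 0.11, adjusted p = 0.730).

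Tgfbr2, the receptor that binds the ligand and activates TGFBR1, lies at chr9:116084293-116175360 on the minus strand. It had 149.8, 166, 117, 174 and 276 CPM in B-depleted combination and 107, 160.4 and 190.2 CPM as the lowest, median and highest of B-depleted isotype. It had 217, 225, 179, 301 and 350.1 CPM in WT combination and 188, 179.9, 139.7, 222 and 183 CPM in WT isotype. WT combination libraries 4 and 5 were the highest of all 21, and B-depleted combination library 5 came next. Under the combination the log2 fold change was 0.25 ± 0.21 in B-depleted tumours (adjusted p = 0.592) and 0.50 ± 0.22 in WT tumours (95% interval 0.048 to 0.96), which missed the threshold at an edgeR adjusted p of 0.0609. The WT value passed without WT combination library 3 (adjusted p = 0.0311), without B-depleted combination library 3 (0.0474) or 5 (0.0261), and in a fit of the 2 WT arms alone (0.0429).

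Tgfbr3, the coreceptor betaglycan, which presents ligand to TGFBR2, lies at chr5:107106570-107289629 on the minus strand. It had 34.8, 56.7, 16.9, 52.7 and 134 CPM in B-depleted combination and 22.7, 39.5 and 50.7 CPM as the lowest, median and highest of B-depleted isotype. It had 82.0, 78.8, 50.4, 150.1 and 180.1 CPM in WT combination and 47.9, 27.5, 31.2, 127 and 66.5 CPM in WT isotype. Over all 21 libraries its highest value was 10.7 times its lowest, the widest span of the 10 genes. The log2 fold change of the combination was 0.69 ± 0.46 in B-depleted tumours (adjusted p = 0.499) and 0.87 ± 0.48 in WT tumours (95% interval -0.12 to 1.87, edgeR adjusted p = 0.134). WT isotype library 4, at 127 CPM, overlapped the WT combination libraries, and the WT value passed without it (adjusted p = 0.0305). Tgfbr3 shares 297 exon bases with Gm43422 on the same strand, which held 1262 counts in all against 21532 for Tgfbr3, so a small part of its reads is uncertain.

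Ltbp1, which binds the latent ligand and anchors it to the matrix, lies at chr17:75005568-75392512 on the plus strand and was scarce. It had 1.89, 3.47, 2.98, 8.45 and 3.71 CPM in B-depleted combination and 1.75, 3.48 and 8.74 CPM as the lowest, median and highest of B-depleted isotype. It had 2.53, 6.09, 3.33, 7.24 and 13.6 CPM in WT combination and 9.16, 1.40, 2.76, 2.69 and 4.58 CPM in WT isotype. Each arm spanned several-fold and all overlapped. The log2 fold change of the combination was 0.035 ± 0.53 in B-depleted tumours (95% interval -1.06 to 1.13, edgeR adjusted p = 0.982) and 0.68 ± 0.54 in WT tumours (-0.44 to 1.81, adjusted p = 0.297), so a change of 1 log2 unit in either direction lay within the interval in B-depleted tumours.

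Ltbp2, a matrix protein of the same family that is not known to hold latent TGF-beta, lies at chr12:84783212-84876532 on the minus strand. It had 50.3, 84.1, 31.0, 33.5 and 131 CPM in B-depleted combination and 15.7, 64.2 and 108 CPM as the lowest, median and highest of B-depleted isotype. It had 103, 93.3, 58.6, 66.4 and 111 CPM in WT combination and 59.2, 74.3, 57.6, 93.2 and 79.8 CPM in WT isotype. The 2 B-depleted arms were more widely spread than the 2 WT arms, with SDs of 42.1 CPM in B-depleted combination, 36.8 in B-depleted isotype, 23.0 in WT combination and 14.9 in WT isotype. Its log2 fold change under the combination was 0.063 ± 0.41 in B-depleted tumours (edgeR adjusted p = 0.957) and 0.27 ± 0.43 in WT tumours (adjusted p = 0.619). Ltbp2 shares 764 exon bases with D030025P21Rik on the other strand, which held 107 counts in all against 23880 for Ltbp2.

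Smad7, the inhibitor, lies at chr18:75367529-75395935 on the plus strand. It had 195, 199.5, 189.7, 187 and 137 CPM in B-depleted combination and 177, 211 and 248 CPM as the lowest, median and highest of B-depleted isotype. It had 181, 174, 213, 107 and 101 CPM in WT combination and 248.7, 253, 156.5, 148 and 187 CPM in WT isotype. The lowest 3 of the 21 libraries were WT combination 5 and 4 and B-depleted combination 5, which are also the 3 with the highest Tgfbr2. For the combination its log2 fold change was -0.22 ± 0.18 in B-depleted tumours (edgeR adjusted p = 0.593) and -0.34 ± 0.19 in WT tumours (95% interval -0.73 to 0.053, adjusted p = 0.139). Without WT combination library 3, the highest of its arm, the WT value was -0.49 and passed (adjusted p = 0.0286). It was -0.20 without WT combination library 5 (adjusted p = 0.359) and -0.073 without WT isotype libraries 1 and 2 (adjusted p = 0.775).

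Tgfbi, a secreted matrix protein named for its induction by TGF-beta, lies at chr13:56609523-56639562 on the plus strand and showed the largest change of the 10. It had 173, 164, 125, 172 and 424 CPM in B-depleted combination and 95.5, 121 and 199 CPM as the lowest, median and highest of B-depleted isotype. It had 257, 381, 215, 352 and 516 CPM in WT combination and 146, 163, 121, 156.7 and 148 CPM in WT isotype. Every WT combination library exceeded every WT isotype library, and B-depleted combination library 5 reached the WT combination range while the other 4 of its arm did not. Tgfbi rose in WT tumours by 1.25 ± 0.30 on the log2 scale (95% interval 0.63 to 1.87, 2.38-fold, edgeR adjusted p = 0.00224), and this call held in all 21 refits that left out 1 library (adjusted p from 0.000200 to 0.00958). In B-depleted tumours the log2 fold change was 0.65 ± 0.28 (0.069 to 1.24), with an unadjusted p of 0.0302 and an adjusted p of 0.293. The interaction was -0.60 ± 0.41 (adjusted p = 0.351). Without B-depleted combination library 5 it was -1.05 and passed (adjusted p = 0.0463).

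Under the combination in WT tumours, 2 of the 10 genes rose, Tgfb3 and Tgfbi, and none fell. The same test called 50.0% of the 19061 genes, 25.0% as higher and 25.0% as lower, while 29.3% had ranges that did not overlap, and 15.0% had the WT combination range above that of WT isotype, so the share of the 10 that was called was no higher than that of all genes. The median log2 fold change of the 10 was 0.59, against -0.00086 over all genes tested. With the summed Y-linked level as a covariate, neither gene was called and both signs turned, to -0.52 for Tgfb3 (adjusted p = 0.608) and -0.26 for Tgfbi (adjusted p = 0.771), and 77 genes in all were called. The sign also turned for 6 genes not called in either fit, to -0.16 for Tgfb1, -0.63 for Tgfb2, -0.61 for Tgfbr2, -1.22 for Tgfbr3, -0.97 for Ltbp1 and -1.60 for Ltbp2. Since the 2 WT arms do not overlap in that level, the covariate and the combination cannot be told apart there.

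**Figure D3:**
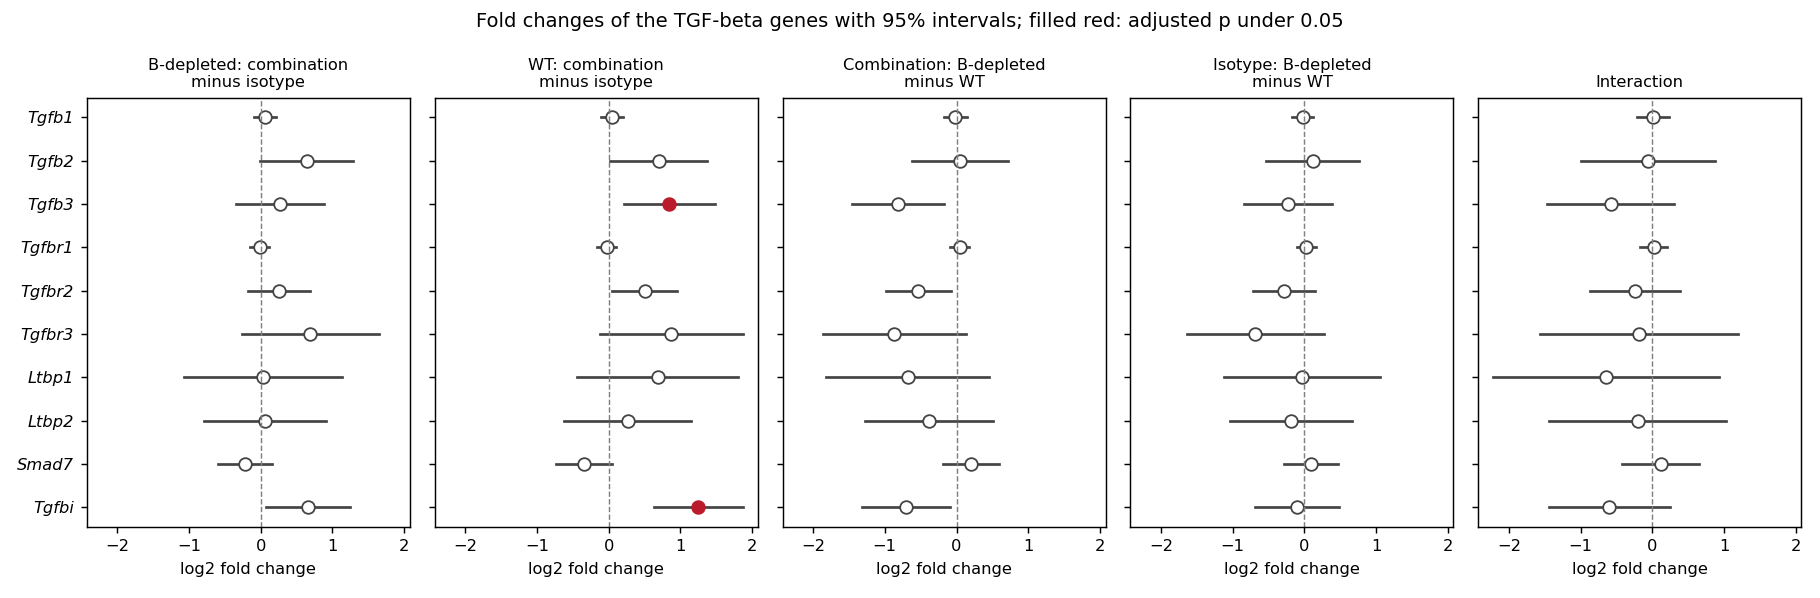
Log2 fold change of each TGF-beta gene with its 95% interval in the 5 tests, with filled red points for an adjusted p under 0.05. Only Tgfb3 and Tgfbi under the combination in WT tumours are filled, at 0.85 and 1.25.

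Marker genes of several cell types moved in the same comparison. Of the fibroblast markers 4 of 7 rose, among them Thy1 and Fap, with a summed level of 889 to 2040.2 CPM in WT combination and 856 to 1164 CPM in WT isotype. All 7 macrophage markers rose (1684 to 3349 CPM in WT combination, 695 to 1458 CPM in WT isotype), as did all 6 T-cell markers (254 to 413 CPM in WT combination, 53.4 to 109 CPM in WT isotype). For endothelium 2 of 6 rose (199.8 to 385 CPM in WT combination, 142 to 242 CPM in WT isotype), for pericytes and smooth muscle 1 of 4 (327 to 456 CPM in WT combination, 279 to 512 CPM in WT isotype), for regulatory T cells 2 of 3, for B cells 3 of 3 and for platelets 1 of the 3 tested. Of the hepatocyte and hepatoma markers 5 of 6 fell (165 to 1258 CPM in WT combination, 1156 to 4323 CPM in WT isotype). Of the 5 mitochondrially encoded genes kept as a sign of RNA quality, 3 fell and 4 had an unadjusted p under 0.05, with a median log2 fold change of -0.79 and a summed level of 7962 to 15394 CPM in WT combination and 13413 to 18088 CPM in WT isotype. No marker of these lists was at 0 in all libraries of an arm. The part of these cell types and of RNA quality in the changes of Tgfb3 and Tgfbi was not tested.

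Under the combination in B-depleted tumours, 0 of the 10 genes passed, 1 (Tgfbi) had an unadjusted p under 0.05, and DESeq2 and limma voom called 0 as well. Of all genes, 0.341% passed, 2734 of 19061 had an unadjusted p under 0.05 by edgeR, and 2.01% had ranges that did not overlap. The 65 genes that passed became 11 to 176 with 1 library left out, with 11 without B-depleted isotype library 2, 163 without library 5 of that arm and 176 without its library 3. The median log2 fold change of the 10 was 0.16, against 0.016 over all genes. B-depleted combination library 5 gave the highest Tgfb2 and Ltbp2 of all 21 libraries, the second highest Tgfbi and the third highest Tgfb1, Tgfbr2 and Tgfbr3, and the third lowest Smad7. It also had the highest summed macrophage markers of its arm, 2045 CPM against 959.5 to 1298 CPM in the other 4, the highest endothelial markers (358 CPM) and platelet markers (117 CPM), and the lowest hepatocyte and hepatoma markers (848 CPM). Leaving it out called none of the 10 in this comparison, and the log2 fold change was then 0.20 for Tgfbi, 0.19 for Tgfb2, 0.10 for Tgfbr3, 0.040 for Tgfb3, 0.0077 for Tgfbr2 and -0.38 for Ltbp2. Among the markers, 2 of 6 T-cell genes rose and no gene of the other lists passed. Summed T-cell markers were 150.4 to 207 CPM in B-depleted combination and 35.6 to 143 CPM in B-depleted isotype.

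**Figure D4:**
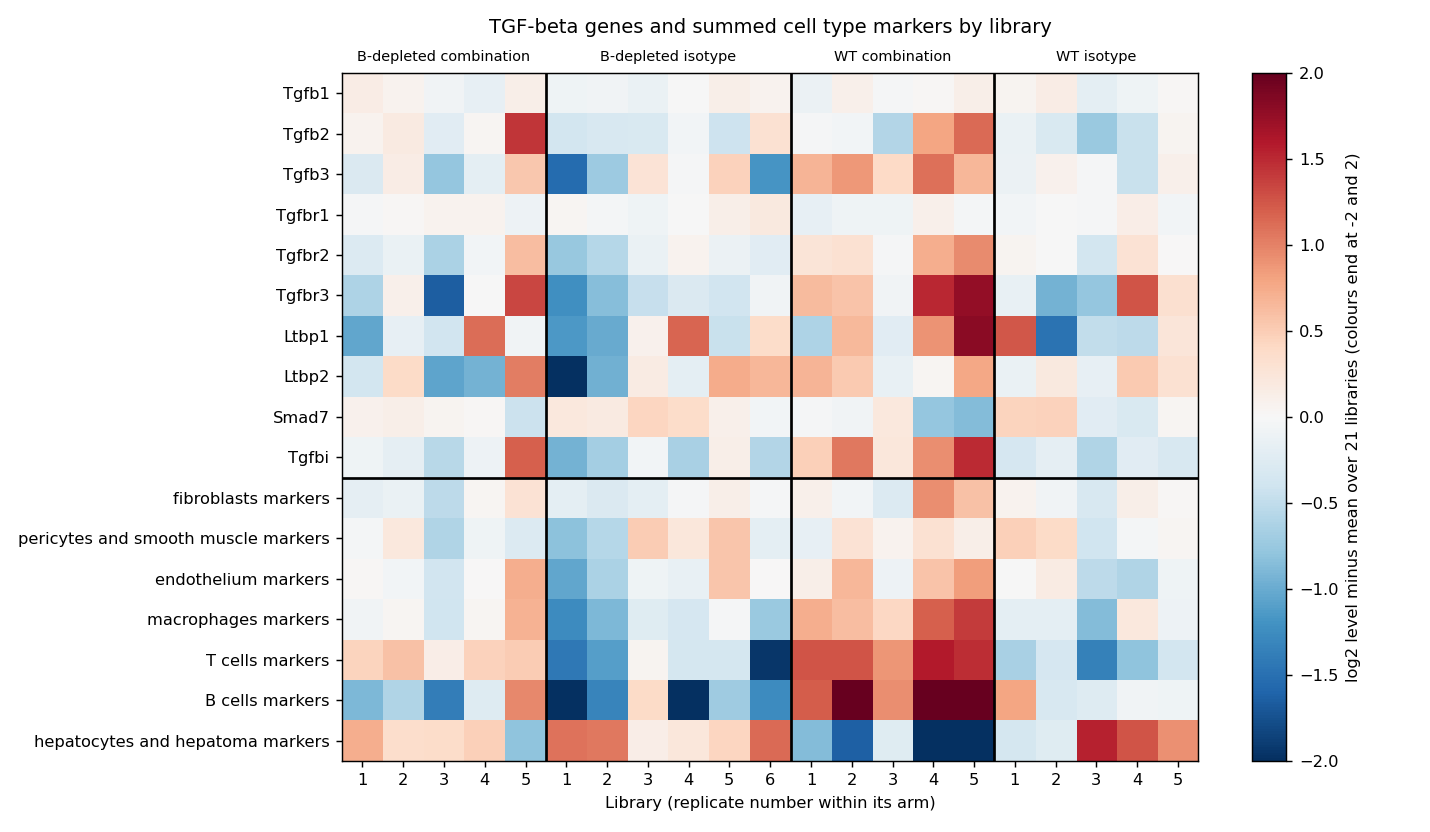
Log2 level of each TGF-beta gene, and of summed markers of 7 cell types, minus the mean over the 21 libraries, with libraries as columns grouped by arm and colours that end at -2 and 2. WT combination libraries 4 and 5 and B-depleted combination library 5 share high Tgfb2, Tgfbr2, Tgfbr3 and Tgfbi, low Smad7, high macrophage markers and low hepatocyte and hepatoma markers.

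For B-cell depletion under isotype, 0 of the 10 genes passed. The adjusted p was 1.00 for each, none had an unadjusted p under 0.05, and DESeq2 and limma voom called 0. Over all genes 0.0% passed (0 genes, with 563 at an unadjusted p under 0.05, 5 called by DESeq2 and 0 by limma voom), and 0.462% had ranges that did not overlap. The largest log2 difference was -0.69 ± 0.46 for Tgfbr3, which was -0.22 without WT isotype library 4, and the 95% intervals were -0.17 to 0.13 for Tgfb1 and -0.11 to 0.16 for Tgfbr1. Other intervals were wider, -1.64 to 0.27 for Tgfbr3, -1.12 to 1.05 for Ltbp1, -0.84 to 0.38 for Tgfb3 and -0.69 to 0.48 for Tgfbi, and leave room for differences of these sizes. Of the 5 mitochondrially encoded genes, 0 passed and 4 had an unadjusted edgeR p under 0.05, with a median log2 difference of -0.46. Their summed level was 9816 to 14118 CPM in B-depleted isotype and 13413 to 18088 CPM in WT isotype. The part of RNA quality here was not tested.

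Under the combination, B-depleted and WT tumours differed in 29.1% of all genes, with 15.5% higher and 13.5% lower in B-depleted tumours, and 10.5% had ranges that did not overlap. Among the 10, none passed by edgeR, 3 had an unadjusted p under 0.05, DESeq2 called Tgfb3, and limma voom called Tgfb3 and Tgfbi. Of all 19061 genes, 8300 had an unadjusted p under 0.05 by edgeR, DESeq2 called 6455 and limma voom called 5523. The log2 difference was -0.81 ± 0.31 for Tgfb3 (95% interval -1.45 to -0.18, edgeR adjusted p = 0.0510), -0.53 ± 0.22 for Tgfbr2 (adjusted p = 0.0686) and -0.70 ± 0.29 for Tgfbi (-1.31 to -0.086, adjusted p = 0.0753). It was -0.87 ± 0.48 for Tgfbr3 (adjusted p = 0.170) and 0.21 ± 0.19 for Smad7 (adjusted p = 0.407). Without B-depleted combination library 5 the first 4 of these genes passed, with Tgfbi at -1.15 (adjusted p = 0.00252), Tgfbr2 at -0.78 (0.00630), Tgfb3 at -1.04 (0.0152) and Tgfbr3 at -1.46 (0.0180). Without WT combination library 3, Tgfbr2, Tgfb3 and Tgfbi passed (adjusted p = 0.0349, 0.0402 and 0.0397). Over all genes the main fit called 5545 and the refits that left out 1 library called 2182 to 7606. These passes therefore do not set the 10 genes apart from other genes. Adding the Y-linked sum as a covariate brought the differences to -0.12 for Tgfb3, 0.051 for Tgfbr2, 0.042 for Tgfbi and 0.16 for Tgfbr3, none of them called, and left 4 genes called of all genes. Since only B-depleted combination library 5 reached the WT combination range of that sum, the covariate and depletion can hardly be told apart there. Among the refits that left out 1 library, the count over all genes was lowest without WT combination library 4 (2182) or 5 (2251). This test and the one of the combination in WT tumours share the WT combination libraries. In the same comparison 6 of 7 macrophage, 5 of 6 T-cell, 3 of 3 B-cell, 3 of 3 regulatory T-cell, 3 of 7 fibroblast, 2 of 4 skeletal muscle (median log2 difference -3.67) and 1 of 4 pericyte and smooth muscle markers fell. The markers that rose were 5 of 6 for hepatocytes and hepatoma and 1 of the 2 tested for adipocytes. Summed adipocyte markers were 92.0 CPM in B-depleted combination library 4 and 0.595 to 1.64 CPM in the rest of that arm, so their rise rests on 1 library. Summed regulatory T-cell markers were 35.6 to 57.9 CPM in B-depleted combination and 87.0 to 137 CPM in WT combination, and summed macrophage markers were 959.5 to 2045 CPM in B-depleted combination and 1684 to 3349 CPM in WT combination. The part of these cell types in the differences was not tested.

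The test of whether the combination acted differently in B-depleted and WT tumours called 0.0262% of all genes and 0 of the 10, none of which had an unadjusted p under 0.05. Of all 19061 genes, 4881 had an unadjusted p under 0.05 by edgeR. The 5 genes called in all became 0 to 1540 with 1 library left out, 1540 without WT combination library 3 and 1382 without B-depleted combination library 5, and 2007 without WT isotype libraries 1 and 2. DESeq2 called 1210, so the count over all genes depends on single libraries and on the tool. DESeq2 and limma voom called 0 of the 10. The interaction intervals were -1.46 to 0.30 for Tgfb3 and -1.45 to 0.25 for Tgfbi, which leave room for a response in B-depleted tumours that is much smaller than in WT or slightly larger.

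The 10 genes differed widely in their spread between libraries of the same arm. The within-arm SD on the log2 scale was 0.095 for Tgfbr1 and 0.11 for Tgfb1, smaller than in all but 4.38 and 9.27% of the genes tested. It was 0.32 for Smad7, 0.36 for Tgfbr2, 0.48 for Tgfbi, 0.51 for Tgfb2 and 0.52 for Tgfb3, against 0.29 for the median gene. It reached 0.76 for Ltbp2, 0.81 for Tgfbr3 and 0.89 for Ltbp1, larger than in 92.2, 93.8 and 95.5% of genes. The highest library was 1.26 times the lowest for Tgfb1 and 1.28 times for Tgfbr1, 6.22 times for Tgfb3 and 5.41 times for Tgfbi.

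Other genes of the pathway were counted in 5 lists of 37 genes. In WT tumours under the combination 11 rose and 13 fell, with a median log2 fold change of 0.059, so these genes did not move in 1 direction. Over all genes the same test called 50.0%, with 25.0% higher and 25.0% lower. All 6 signal transducers fell, with a median of -0.54. They were Zfyve9, the anchor that brings SMADs to the receptor (-0.57 ± 0.082, 54.3 CPM in WT combination and 81.9 CPM in WT isotype, edgeR adjusted p = 6.91e-05), Smad2 (-0.55 ± 0.096), Smad3 (-0.60 ± 0.11), the kinase Map3k7 (-0.35 ± 0.066), its partner Tab1 (-0.54 ± 0.12) and Smad4 (-0.20 ± 0.060). All 6 fell in every refit that left out 1 library. With the Y-linked covariate 0 passed, with no change of sign and a median of -0.20.

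Of 3 other receptors and coreceptors 2 rose. Acvrl1, an endothelial type I receptor, rose by 1.04 ± 0.24 and Eng, its coreceptor endoglin, by 1.20 ± 0.29 (edgeR adjusted p = 0.00208 and 0.00270), while Bambi, a decoy receptor, had a log2 fold change of -0.96 (adjusted p = 0.0581). With the Y-linked covariate both signs that were called turned and 0 passed. Of the 10 latency and activation genes 3 rose and 2 fell. Nrros, which holds latent TGF-beta on macrophages and microglia, rose by 1.52 ± 0.25 and the microfibril gene Fbn1 by 1.15 ± 0.38, while the latent binding protein Ltbp3 fell by 0.68 ± 0.14 and the integrin chain Itgav by 0.55 ± 0.12. The other that rose was Itgb6, an integrin chain that activates the ligand, named after its value was seen. The Fbn1 call was lost without WT combination library 5 (adjusted p = 0.05001), and that of Itgb6 in 10 refits (adjusted p up to 0.107), those without WT combination library 1, 2, 4 or 5, WT isotype library 1, 3, 4 or 5, B-depleted combination library 1 or B-depleted isotype library 5. With the Y-linked covariate 0 of the 10 passed and 2 of the called genes changed sign.

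Of 8 negative regulators 4 fell and 2 rose. Tgif1, a nuclear corepressor, fell by 0.43 ± 0.086, the inhibitory Smad6 by 0.53 ± 0.15 and the ubiquitin ligases Smurf2 and Smurf1 by 0.23 ± 0.064 and 0.22 ± 0.063. Pmepa1 and Ski, named after their values were seen, rose by 0.98 ± 0.36 and 0.29 ± 0.11, and both calls were lost without WT combination library 2, 4 or 5 and without WT isotype library 3, 4 or 5 (adjusted p up to 0.0773 for Pmepa1 and 0.119 for Ski). The Ski call was also lost without B-depleted combination library 1 or 2 and B-depleted isotype library 4 or 6. Under the Y-linked covariate 0 of the 8 passed and 2 of the called genes changed sign. Among 10 known targets the 3 fibrillar collagens in the list and Postn, a matrix protein of activated fibroblasts, rose together (Postn 1.97 ± 0.43, Col1a2 2.20 ± 0.51, Col1a1 2.16 ± 0.51, Col3a1 2.19 ± 0.63). Col1a1 averaged 6279 CPM in WT combination and 1435 CPM in WT isotype. In the other direction Fn1, the fibronectin gene, fell by 1.09 ± 0.13 (3464 CPM in WT combination and 7440.5 CPM in WT isotype). With the Y-linked covariate the signs of all 4 that rose turned, and 1 of the 10 targets fell.

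Of the 17 genes tested of the related activin and BMP family, 3 rose (Bmp6, Acvr2a and Inhba, named after their values were seen) and 5 fell. The same test called 50.0% of all genes, 25.0% as higher and 25.0% as lower. Bmp7 fell by 1.84 ± 0.32 (14.6 CPM in WT combination and 52.7 CPM in WT isotype), Smad1 by 0.41 ± 0.079, the receptor Bmpr1a by 0.26 ± 0.062 and Bmp4 by 0.69 ± 0.18, and the other that fell was Smad5, named after its value was seen. When the Y-linked covariate was added, 0 of the 17 passed and 3 of the called genes changed sign. The calls of Acvr2a and Inhba were each lost in 5 refits (adjusted p up to 0.0883 and 0.0793), and that of Smad5 without WT isotype library 3 (0.0749). In B-depleted tumours 0 of the 37 pathway genes passed under the combination, 16 had an unadjusted p under 0.05 and DESeq2 and limma voom called 1 each. Of all 19061 genes, 2734 had an unadjusted p under 0.05 in that edgeR test. The smallest p of the 37 was that of Fn1 (-0.51 ± 0.12, edgeR adjusted p = 0.0673). Under isotype, depletion called 0 of the 37, also by DESeq2 and limma voom, with 0 at an unadjusted p under 0.05. The interaction called 0 of the 37, with 9 at an unadjusted p under 0.05, 3 called by DESeq2 and 0 by limma voom. Over all 19061 genes the interaction had 4881 at an unadjusted p under 0.05 by edgeR. The smallest p of the 37 was again that of Fn1 (0.58 ± 0.17, edgeR adjusted p = 0.0908).

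**Figure D5:**
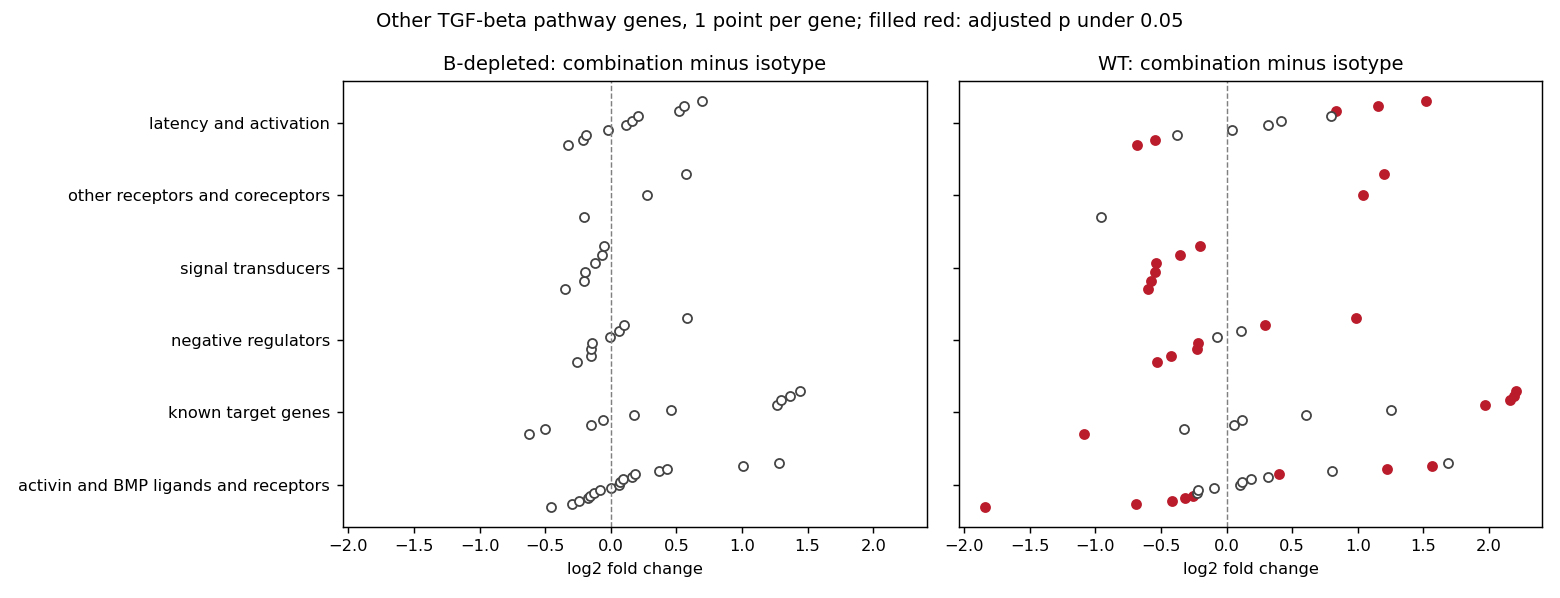
Log2 fold change under the combination of each other pathway gene by list, in B-depleted tumours and in WT tumours, with filled red points for an adjusted p under 0.05. In WT tumours all 6 signal transducers are filled left of 0 and 4 target genes are filled near 2, and in B-depleted tumours no point is filled.

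Under the combination, B-depleted tumours had 7 of the 37 genes higher and 2 lower than WT tumours, where all genes had 15.5% higher and 13.5% lower, or 29.1% called. The higher ones were 4 transducers (Map3k7 0.22 ± 0.066, Zfyve9 0.27 ± 0.082, Tab1 0.40 ± 0.12, Smad2 0.28 ± 0.096), Ltbp3 (0.39 ± 0.14), Tgif1 (0.35 ± 0.086) and Fn1 (0.38 ± 0.12). The lower ones were Nrros (-0.86 ± 0.24, 68.7 CPM in B-depleted combination and 124 CPM in WT combination) and Eng (-0.94 ± 0.29). In the related family Bmp7 was higher by 1.31 ± 0.31 and Smad1 by 0.22 ± 0.079. Among these, Tgif1 and Bmp7 kept their calls in all 21 refits that left out 1 library. Each of the others lost its call without WT combination library 4 and without library 5, and most also without others, with edgeR adjusted p up to 0.136 for Ltbp3, 0.108 for Smad1, 0.105 for Smad2, 0.0978 for Fn1, 0.0760 for Map3k7, 0.0733 for Eng and Tab1, 0.0710 for Zfyve9 and 0.0638 for Nrros. The Ltbp3 call was also lost without WT combination library 2 or B-depleted combination library 1, 2, 3 or 4. It was lost without B-depleted isotype library 1, 2, 3, 4 or 6 and without any single WT isotype library, though those arms are not in this comparison. With the Y-linked covariate 1 of the 37, a known target gene, was called, and it was higher.

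The genes whose levels followed each ligand most closely were found after the mean of each arm was taken off, over 21 libraries and 14229 protein-coding genes. For Tgfb3 they were Col8a2 (Pearson r = 0.94), Daam2 (0.93) and Panx1 (0.91), and 0.93, 0.90 and 0.85 without the 2 libraries farthest from the Tgfb3 median. For Tgfb2 they were Bmp1 (0.93), Lgi2 (0.90) and Abhd5 (0.90), and 0.84, 0.82 and 0.80 without B-depleted combination library 5 and WT combination library 5. For Tgfb1, whose range was narrow, they were Cd37 (0.82), Rhbdf2 (0.81) and Npc1 (0.81). These are descriptions over the same 21 tumours, and the genes named were the closest of many searched.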

How the data were processed

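The deposited table holds raw read counts per Ensembl gene for 21 tumour libraries, which the authors made, per the submitters' processing notes, with cutadapt 2.4, STAR 2.7.2a and GRCm38. How reads were counted (program, strand, annotation version) is not given in the sources used here. Per the labels' protocols, RNA came from frozen tumour and libraries were made with a stranded mRNA kit. Symbols came from GENCODE for 55227 of 55487 identifiers; the other 260 held 0.0183% of counts. No 2 libraries were identical (r from 0.943 to 0.988 over 45 pairs within arms).

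Tests on the counts used edgeR 4.0.16 (R 4.3.3): filterByExpr, TMM scaling (factors 0.953 to 1.029) and a robust quasi-likelihood fit of 4 arms without covariates, whose spread all 21 libraries share. There were 5 tests, of the combination within B-depleted and WT tumours, of depletion within combination and isotype, and of the interaction. Calls needed an adjusted p (Benjamini-Hochberg, over all 19061 genes) below 0.05. At the lowest depth 1 CPM is 9.52 counts. CPM use library totals, and exon lengths come from the annotation.

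Alternatives were DESeq2 1.42.0, limma 3.58.1 (voom), no filter, other scaling, thinned counts, a fit of 2 arms, replicate blocks, a covariate of summed Y-linked transcripts, and each library left out. The fits were tested on simulated counts that gave every gene the same spread, unlike the 10 genes here, and that outcome is not used. All 10 genes are given in every comparison, with up to 4 called genes of smallest p per pathway list and the 3 genes closest to each ligand. The members and lists were chosen with earlier results of these data known. Of the listed genes, 1 B-cell marker and 1 target gene are not reported here.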

Additional observations from a re-analysis of the deposited data

Results flagged for a closer look

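Of the 40 sets made by 10 genes in 4 arms, 5 held 1 library whose gap to its nearest neighbour took up most of the range of its arm, by Dixon's criterion, which chance meets in about 1 in 20 groups. B-depleted combination library 5 accounted for 3 of them. It was high for Tgfb2, at 16.3 CPM, and for Tgfbi, at 424 CPM, and low for Smad7, at 137 CPM. The same library had the highest summed B-cell markers of the B-depleted arms, 3.43 CPM, and the lowest hepatocyte and hepatoma markers, 848 CPM. The other 2 sets were Ltbp1, high at 8.45 CPM in B-depleted combination library 4, and Tgfbr1, high at 189 CPM in WT isotype library 4. Results with and without B-depleted combination library 5 are given above.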

How the results depend on the processing

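Labels leave the source animals, the depletion method and strand use in counting unstated, and bulk levels do not separate cell number from RNA per cell. The number of the 10 genes called for the combination in WT tumours was 2. It was 1 with no filter, 1 without WT isotype libraries 1 and 2, 0 with the Y-linked covariate, 4 without the 2 B-depleted libraries with the highest B-cell markers (an alternative chosen after seeing the data) and 1 to 5 when 1 library was left out, 5 without WT combination library 3, 4 without B-depleted combination library 5 and 1 without WT combination library 2 or 4. Over all genes the same comparison had 9529 called, and 7691 to 10240 with 1 library left out. That count was 9753 without WT isotype libraries 1 and 2 and 9872 without those 2 B-depleted libraries. The Y-linked covariate turned the sign of 8 of the 10 there, of the called Tgfb3 to -0.52 and Tgfbi to -0.26, and of 6 uncalled genes (Tgfb1, Tgfb2, Tgfbr2, Tgfbr3, Ltbp1 and Ltbp2). For depletion under the combination the number was 0, against 1 with DESeq2, 2 with limma voom, 1 in a fit of the 2 arms, 4 without the same 2 B-depleted libraries and 0 to 4 with 1 library left out (4 without B-depleted combination library 5, 3 without WT combination library 3, and 1, Tgfb3, without B-depleted isotype library 1, 3, 5 or 6). Over all genes that comparison had 5545 called by edgeR, 6455 by DESeq2, 5523 by limma voom, and 2182 to 7606 with 1 library left out. For the interaction the number of the 10 called was 0, and 0 to 1 with 1 library left out. For the combination in B-depleted tumours and for depletion under isotype it was 0 in every setting run. The cause of these changes was not tested.

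With the title's replicate number as a block, 5 of the 10 were called for the combination in WT tumours. The same fit called 9583 of all genes there, against 9529 (50.0%) in the main fit, so the 5 do not stand out. For depletion under the combination it called 4 of the 10. With the number in the description code as the block, 1 was called for the combination in WT tumours and 2 for depletion under the combination. Over the 2000 most variable genes, the deviations of pairs with the same title number correlated from -0.35 to 0.37 in WT tumours. There, 3 of 10 libraries were closest to their own title number. Those correlations ran from -0.26 to 0.18 for the combination in B-depleted tumours (0 of 10 closest), -0.38 to -0.17 for depletion under isotype (0 of 10) and -0.043 to 0.55 for depletion under the combination (4 of 10). By description code, 0 of 8 were closest for the combination in WT tumours and 2 of 10 in B-depleted tumours. For depletion it was 0 of 10 under isotype and 2 of 8 under the combination. No chance level was worked out, so a pairing by number was neither shown nor excluded. Over 1590 alternative values of single genes, 1543 kept their direction or stayed uncalled on the same side of the threshold (104 of them with another sign, uncalled in both), 39 passed anew, 6 no longer passed and 2 reversed. Over all genes, the count for the combination in B-depleted tumours was 65 by edgeR and 397 by DESeq2, for the interaction 5 and 1210, for depletion under the combination 5545, against 3343 with no filter and 4 with the Y-linked covariate, and for the combination in WT tumours 9529, against 77 with that covariate. The fit of 2 arms cannot give the interaction.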
